A study of Homo sapiens with 16 samples.

Results

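The immediate-early transcription factors and MYC were followed through a time course of HER2 inhibition in MCF-10A cells, a nontransformed human breast epithelial line. The 10 genes are FOS, FOSB, FOSL1, JUN and JUNB, which encode subunits of the AP-1 transcription factor, EGR1, IER2, IER3, ATF3 and MYC. They were taken by symbol from the deposited array table, and all 10 were found there among 18190 gene symbols, on 11 rows. Cells growing in serum-free Ham's F-12 medium with insulin, epidermal growth factor (EGF) and hydrocortisone received 1 µM CP724,714, a small molecule that blocks the kinase of the receptor HER2. RNA was taken from parallel cultures every 3 hours up to 45 h and hybridized to Illumina human Ref8v2 bead arrays, with 1 array for each of 16 time points. The 0 h array came from untreated cells and all the others from treated cells. The medium, which carries EGF and insulin, was renewed when the inhibitor was added, and no course without inhibitor was analysed here, so the inhibitor, the fresh medium and the time in culture cannot be told apart. MCF-10A is an immortal line grown on plastic, and 1 array measured 1 culture.

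Immediate-early genes are switched on within minutes of a growth factor signal, without new protein synthesis, and most of their transcripts are short-lived. Receptors such as EGFR and HER2 reach them through RAS and the kinases MEK and ERK, which activate ternary complex factors bound beside serum response factor (SRF) at CArG boxes, and through kinases that act on CREB at cyclic AMP response elements. The FOS and JUN proteins pair with each other as AP-1. FOS is the transient member of its family, whereas FOSL1 (FRA-1) follows later and is maintained by continued ERK activity and by AP-1 itself. EGR1 is a zinc-finger activator, ATF3 responds to stress, and MYC pairs with MAX at E-boxes to drive ribosome production and growth, opposed by the MXD proteins and MNT.

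The RefSeq promoter windows of FOS and EGR1 (GRCh38.p14) are printed because both genes fell early and rose late in the course and are textbook targets of SRF and CREB. Each run holds the 250 bases upstream of the annotated start, 5′ to 3′ on the coding strand, which is the plus strand for both, with CArG boxes and matches to TGACG on either strand (CGTCA on the minus strand) in capitals.
FOS, chr14:75278578-75278827: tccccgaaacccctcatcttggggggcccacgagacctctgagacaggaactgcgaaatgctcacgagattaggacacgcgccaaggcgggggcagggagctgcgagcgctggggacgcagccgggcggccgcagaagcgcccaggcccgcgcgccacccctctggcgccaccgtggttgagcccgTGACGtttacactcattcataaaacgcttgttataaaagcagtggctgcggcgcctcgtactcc
EGR1, chr5:138465229-138465478: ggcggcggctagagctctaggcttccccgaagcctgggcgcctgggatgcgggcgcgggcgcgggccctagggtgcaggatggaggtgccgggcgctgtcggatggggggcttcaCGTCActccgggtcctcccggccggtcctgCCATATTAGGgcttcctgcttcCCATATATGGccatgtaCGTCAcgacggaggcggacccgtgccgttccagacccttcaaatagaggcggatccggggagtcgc

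A CArG box, written CC, then 6 bases of A or T, then GG, was present in 1.29% of 35116 windows of 300 bases (250 upstream and 50 downstream of the start). Of the 8 windows of 7 members (none was given for FOSL1 and IER3, and MYC was left out), only that of EGR1 held it, at −105 to −96 and at −83 to −74 from the start. The AP-1 site TGANTCA (7.71% of all windows), the full cyclic AMP response element TGACGTCA (1.85%), the E-box CACGTG (7.26%) and the EGR site GCGTGGGCG or GCGGGGGCG (5.77%), each read on both strands, were in no member window. The shorter TGACG, the core of the cyclic AMP response element and chosen after the sequences were seen, was in 24.6% of all windows and in those of EGR1, FOS, FOSB, IER2, JUN and JUNB. In FOS it lay at −64 to −60, and in EGR1 at −135 to −131 and −66 to −62. These are matches of letters within short windows, and binding was not measured. Sequence further upstream than 250 bases was not searched, so a window without a match, such as that of FOS for the CArG box, does not show that the gene lacks the site.

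Intensities are given as log2 values after background correction and quantile normalization, so a difference of 1 is a 2-fold difference, and each array gives 1 value. The 16 arrays had median intensities of 210 to 254 and 50.1 to 52.9% of rows above background (detection p under 0.05). The inferred background was 188 to 199 on the arrays of 0 to 21 h and 166 to 185 on those of 24 to 45 h. The cause of this step was not tested. Time points were averaged in 5 consecutive phases, 0-3 h, 6-9 h, 12-21 h, 24-33 h and 36-45 h. The time points of a phase are not replicates of a condition, so p-values measure a difference between phases against the scatter around phase means. That scatter was pooled over the 5 phases, and the 0-3 h phase joins an untreated and a treated array. At 0-3 h the SD was 1.49 for FOS, 1.10 for FOSL1 and 0.74 for MYC, against 0.09 to 0.47 for these genes later. For these genes p-values against 0-3 h thus rest on a pooled scatter narrower than that of 0-3 h. Of the tested members only IER2 went the other way, with 0.04 at 0-3 h and 0.08 to 0.17 later. Basal markers KRT5, KRT17, KRT6A, ITGB4 and S100A2 and the epithelial markers KRT8, KRT18 and EPCAM were above background on all 16 arrays, and KRT14 on 1. Of the 4 luminal hormone-responsive markers ESR1 and PGR were above background on 0 arrays, GATA3 on 15 and FOXA1 on 16. From 24-33 h to 36-45 h GATA3 rose (0.66, limma adjusted p = 0.0261), while FOXA1 was not past the threshold (−0.22, limma adjusted p = 0.406). Of the 6 fibroblast markers 5 were above background on 0 arrays. Of the leukocyte markers CD3E was above background on 0 arrays, PTPRC on 5 and CD14 on 12. CD14 was at least 2.71-fold higher at 36-45 h than at 0-3 h (adjusted p = 2.16e-07), and the summed normalized intensity of the 5 leukocyte markers was 283 to 284 at 0-3 h and 395 to 436 at 36-45 h. Of the 4 endothelial markers CDH5 and VWF were above background on 0 arrays, and PECAM1 and KDR on 15. PECAM1 was higher at 36-45 h than at 0-3 h (1.02, limma adjusted p = 9.01e-05), while KDR differed by 0.07 (limma adjusted p = 0.772). The summed intensities of the 4 were 228 to 240 at 0-3 h and 296 to 319 at 36-45 h. Of 9 tested basal markers (of 10), 7 were higher and 0 lower at 6-9 h than at 0-3 h, led by KRT17 (1.10) and KRT6A (1.01), with sums of 82659 to 102010 at 0-3 h and 130780 to 140540 at 6-9 h. At 36-45 h against 0-3 h 5 were higher and KRT6A and KRT6B lower. The part of these markers in the results on the members was not tested. The receptor row of ERBB2 (HER2), which combines probes, was above background on 11 arrays, with normalized values of 6.08 to 6.55, and a further ERBB2 probe on 0. Scaling arrays to a common median in place of quantiles moved the share of higher calls from 52.2% to 74.8% for 36-45 h against 0-3 h, with the median of all probes at 0.10, and from 50.4% to 70.8% for 12-21 h against 6-9 h, from 54.9% to 65.1% for 6-9 h against 0-3 h and from 49.8% to 37.4% for 36-45 h against 24-33 h. No member called under either scaling changed direction.

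FOS, FOSL1, JUN, EGR1, IER2, IER3 and MYC were above background on all 16 arrays and were tested, each through 1 probe, while the 4 rows of FOSB, JUNB and ATF3 were above background on none. The 7 members did not share a course. Within 6 to 9 h of inhibitor FOS, EGR1, IER2 and IER3 fell and MYC rose. FOS and EGR1 rose again from 36 h, when FOSL1 fell, whereas IER2 and IER3 stayed low and MYC stayed high. A natural cubic spline of time was past the threshold (limma, adjusted p under 0.05 over 11957 probes) for 6 of the 7, all except JUN, against 54.6% of all probes tested. RNA came from whole cultures, so fewer expressing cells and less RNA per cell cannot be told apart.

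**Figure D1:**
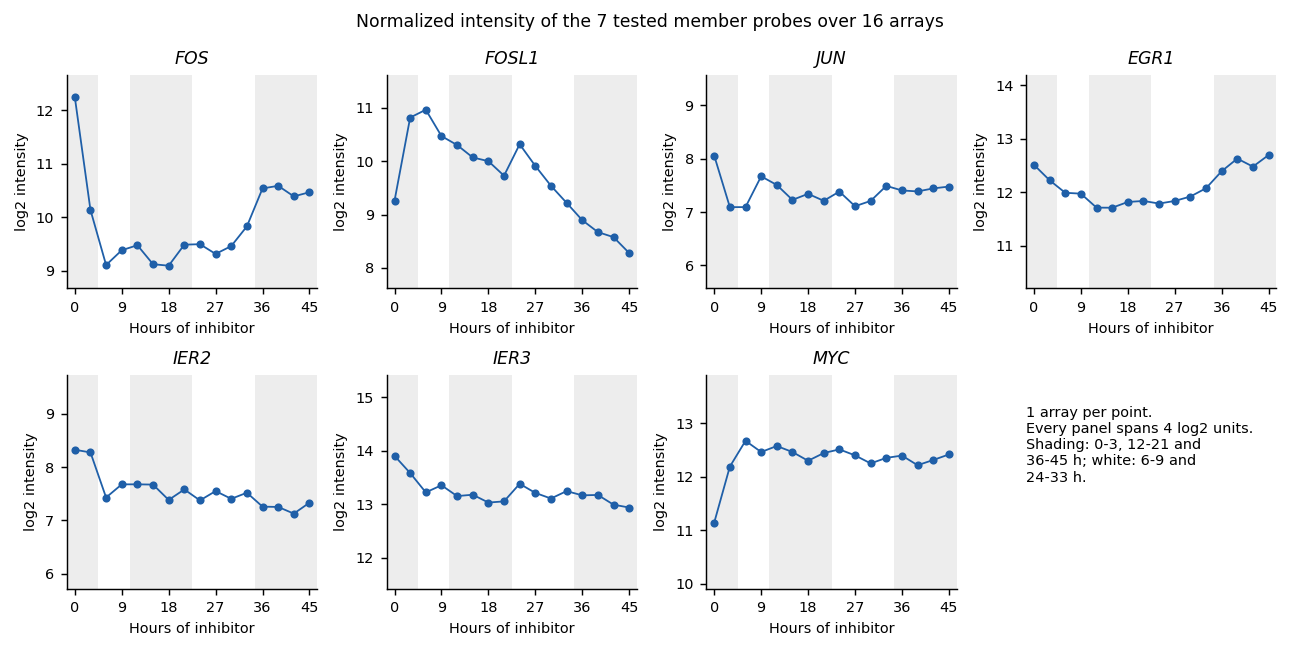
Normalized log2 intensity (vertical axis, 4 log2 units in every panel) of each tested member against hours of inhibitor, 1 point per array, with the phases as shaded and white bands. FOS drops from 12.25 to 9.10 between 0 and 6 h, MYC climbs from 11.14 to 12.67, and FOSL1 peaks at 10.96 before declining to 8.28.

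FOS, the founding AP-1 partner of JUN, had the widest range of the 7. Its log2 intensity was 12.25 in untreated cells at 0 h and 10.14 at 3 h, a 4.32-fold difference between these arrays. It was 9.10 at 6 h and 9.38 at 9 h, so that the 0 h array stood 8.84-fold above that of 6 h. From 12 to 21 h it read 9.48, 9.12, 9.09 and 9.49, and from 24 to 33 h 9.49, 9.31, 9.46 and 9.83. At 36, 39, 42 and 45 h the values were 10.54, 10.59, 10.39 and 10.47. All 4 late arrays lay above every other array except that of 0 h. Of 11957 probes, 47 had a wider range than the 8.91-fold range of FOS, and 16 fell further between 0 and 3 h. The mean of 6-9 h was 3.86-fold below that of 0-3 h (log2 difference −1.95, SE 0.38, limma adjusted p = 0.000811), and its size depended on the first 2 arrays, since it was −0.89 without 0 h and −3.01 without 3 h. The mean of 36-45 h was 1.96-fold above that of 24-33 h (0.97, SE 0.27, adjusted p = 0.00555). Against 0-3 h the late level gave −0.70 (SE 0.33, adjusted p = 0.107), with the groups overlapping, and the value was 0.36 without 0 h and −1.75, past the threshold, without 3 h.

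FOSL1, the AP-1 subunit tied to sustained ERK signalling, ran the other way at both ends. It was 9.26 at 0 h and 10.82 at 3 h, a 2.94-fold difference, and highest at 6 h with 10.96. It then read 10.47 at 9 h, 10.30, 10.07, 10.00 and 9.73 from 12 to 21 h, and 10.32, 9.91, 9.54 and 9.22 from 24 to 33 h. The decline went on through 8.90, 8.67 and 8.58 to 8.28 at 45 h, 6.42-fold below the peak and 1.97-fold below 0 h. The 4 values of 36-45 h were below all 12 others. Between 24-33 h and 36-45 h FOSL1 fell 2.20-fold (−1.14, SE 0.26, limma adjusted p = 0.00119). It fell 2.70-fold from 0-3 h to 36-45 h (−1.43, SE 0.32, adjusted p = 0.00158), where the value was −2.21 without 0 h and −0.65, no longer past the threshold, without 3 h. The difference of 6-9 h from 0-3 h was 0.68 (SE 0.36, adjusted p = 0.193), with the 2 groups overlapping, and it was −0.10 without 0 h and 1.46, past the threshold, without 3 h.

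JUN, the partner of FOS and FOSL1, was past the threshold in no comparison. Its values were 8.06 at 0 h, 7.09 at both 3 and 6 h, and 7.67 at 9 h. All later arrays lay between 7.11 and 7.51. The 0 h array was 1.95-fold above that of 3 h, while the deposited intensities of all 16 arrays spanned 1.40-fold, from 307 to 432, since background correction widens the ratios of dim probes. The spline gave an adjusted p of 0.461 (limma). Against 0-3 h JUN differed by −0.19 at 6-9 h (adjusted p = 0.614) and by −0.15 at 36-45 h (adjusted p = 0.63), and both values, at −0.68 and −0.63, were past the threshold without 3 h and turned to 0.29 and 0.34, not past it, without 0 h.

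EGR1 fell and came back within a 1.98-fold range. It was 12.51 at 0 h, 12.22 at 3 h, 11.99 at 6 h and 11.97 at 9 h. From 12 to 21 h it read 11.71, 11.71, 11.82 and 11.84, and from 24 to 33 h 11.79, 11.84, 11.92 and 12.07. The late values were 12.39, 12.63, 12.48 and 12.70, so the array of 45 h was the highest of the course. EGR1 fell 1.31-fold from 0-3 h to 6-9 h (−0.39, SE 0.11, limma adjusted p = 0.015), a call that was lost without 0 h (−0.24) and without 9 h (−0.38). It rose 1.56-fold from 24-33 h to 36-45 h (0.64, SE 0.08, adjusted p = 1.92e-06), and none of the 4 arrays overlapped with those of 24-33 h. The difference between the end and the start was 0.18 (SE 0.10, adjusted p = 0.16), and 0.32, past the threshold, without 0 h.

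IER2 and IER3, named as immediate early response genes, fell early and did not return. IER2, a nuclear protein, was 8.32 at 0 h and 8.27 at 3 h, then 7.43 at 6 h and 7.68 at 9 h. Its later values were 7.38 to 7.68 from 12 to 33 h and 7.13 to 7.33 from 36 to 45 h, so every array from 6 h on lay below the first 2. The fall from 0-3 h to 6-9 h was 1.68-fold (−0.75, SE 0.15, limma adjusted p = 0.00145) and that to 36-45 h 2.08-fold (−1.06, SE 0.13, adjusted p = 7.09e-06), or −0.44 and −0.59 with no background correction, both still past the threshold. IER3, which protects cells from apoptosis in several settings, was 13.91 at 0 h and 13.58 at 3 h, then 13.22 and 13.36, and 12.94 to 13.38 on all arrays from 12 h. Here too the first 2 arrays were the brightest. IER3 fell 1.37-fold to 6-9 h (−0.46, SE 0.11, adjusted p = 0.00368, lost without 0 h at −0.29) and 1.60-fold to 36-45 h (−0.68, SE 0.09, adjusted p = 1.57e-05).

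MYC was lowest in the untreated cells. Its log2 intensity was 11.14 at 0 h, 12.19 at 3 h, 12.67 at 6 h and 12.46 at 9 h. From 12 h to 45 h it stayed between 12.22 and 12.58. The array of 3 h was thus 2.07-fold and that of 6 h 2.89-fold above 0 h, and at 45 h MYC still stood 2.42-fold above it. The deposited intensities also put 0 h lowest, with 2255 at 0 h, 4399 at 3 h and 4320 to 6517 on the other arrays. MYC rose 1.87-fold from 0-3 h to 6-9 h (0.90, SE 0.20, limma adjusted p = 0.00221), with 0.37 without 0 h and 1.42 without 3 h, both past the threshold. It was 1.59-fold higher at 36-45 h than at 0-3 h (0.67, SE 0.17, adjusted p = 0.00492), which rested on the 0 h array, since the value was 0.14 and not past the threshold without it, and 1.19 without 3 h. The spline call of MYC (adjusted p = 0.00811) was lost without 0 h as well.

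The 4 remaining rows were above background on no array. FOSB had deposited intensities of 164 to 229 (detection p of 0.090 or more), JUNB of 170 to 209 and the ATF3 probe ILMN_24314 of 152 to 211, against an inferred background of 166 to 199. At this level a difference between arrays was not detectable. The other ATF3 row, ILMN_6468, is a combined row, and how its intensity and its detection p were combined is not given in the sources used here. Its deposited intensity was 909 at 0 h, 542 at 3 h, 298 at 6 h and 265 at 9 h. It then lay between 264 and 306 up to 33 h and read 373, 375, 379 and 407 from 36 to 45 h, while its detection p stayed at 0.065 or more. The row thus had its 2 highest values on the first 2 arrays and the next 4 on the last 4, within a 3.45-fold range, but as the single ATF3 probe was at background throughout and the row itself failed the detection test, it was not tested and no level of ATF3 is read from it.

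**Figure D2:**
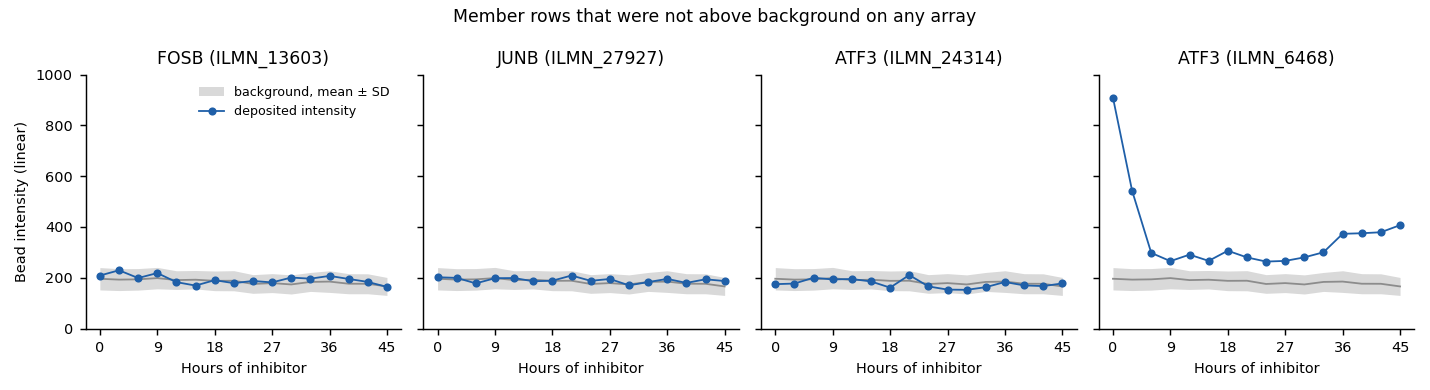
Deposited bead intensity (linear axis, arbitrary units) of the 4 untested member rows against hours of inhibitor, 1 point per array, with the inferred background of each array as a grey line and its SD as a band. FOSB, JUNB and ILMN_24314 stay in or near the band, while the combined ATF3 row starts at 909 and ends at 407.

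The members were set against all probes tested, step by step. At 3 h against 0 h, 4 of 7 members differed by 1.7-fold or more, FOSL1 and MYC upward and FOS and JUN downward, against 5.36% of tested probes (2.87% higher, 2.49% lower), in a comparison of 2 arrays with no test. At 6 h against 3 h only FOS (2.04-fold) and IER2 (1.80-fold) passed 1.7-fold, both lower, against 7.49% of probes (3.99% higher, 3.5% lower). Of 7 members, 5 were called between 0-3 h and 6-9 h, 1 higher and 4 lower, against 24.7% of all probes (13.6% higher, 11.1% lower). Without 0 h the count was 3 (FOS, IER2 and MYC) and without 3 h it was 7. Between 6-9 h and 12-21 h no member was called (limma), with FOSL1 and EGR1 at an unadjusted p under 0.05, against 25.5% of probes (12.8% higher, 12.7% lower), and FOSL1 was called, at −0.69, without 0 h or without 3 h. Between 12-21 h and 24-33 h no member was called and none had an unadjusted p under 0.05, against 0.0669% of probes (0.00836% higher, 0.0585% lower). Between 24-33 h and 36-45 h 3 members were called, FOS and EGR1 higher and FOSL1 lower, against 45.3% (22.6% higher, 22.7% lower). From 0-3 h to 36-45 h 4 were called, MYC higher and FOSL1, IER2 and IER3 lower, against 35.3% (18.4% higher, 16.8% lower). The share of members called between 24-33 h and 36-45 h was thus close to that of all probes. The same shares of all probes apply to the counts in the gene lists below that use every array. They do not apply to counts without 0 h or without 3 h, for the members or for the lists.

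**Figure D3:**
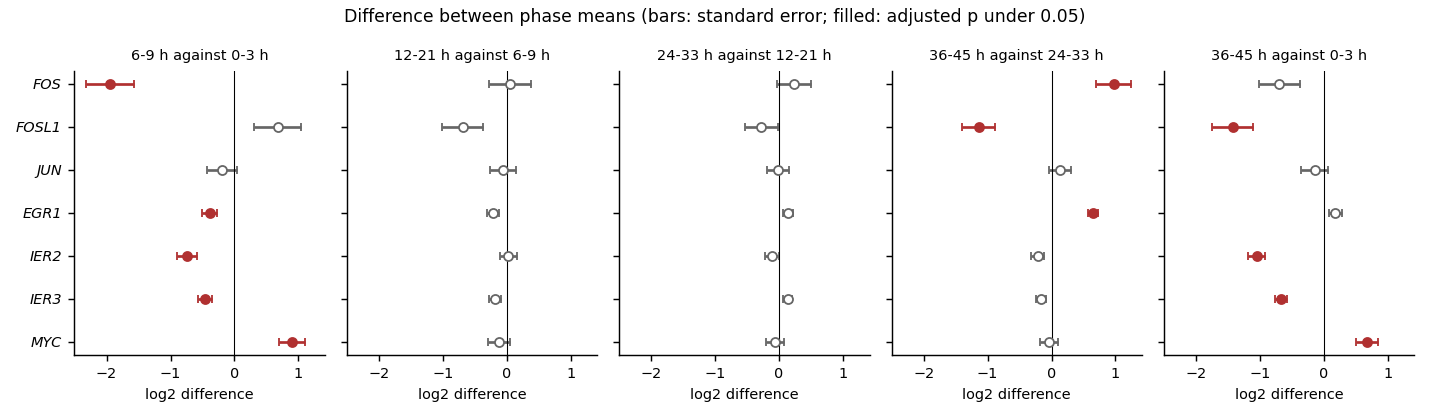
Difference between phase means (horizontal axis, log2 units, first phase minus second) for the 7 tested members in 5 comparisons, with bars of 1 SE and filled points where the limma adjusted p was under 0.05. The filled points lie in the first and the last 2 panels, with FOS at −1.95 in the first and FOSL1 at −1.43 in the last.

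Some of the other AP-1 subunits were, like FOS, lower at 6-9 h than at 0-3 h, but those called did not share its fall from 0 to 3 h. Of 14 further genes of the family 8 were tested, and between 0-3 h and 6-9 h 3 fell and 0 rose, with a median log2 difference of −0.58 against −0.01 over all probes. Of all probes 11.1% were called lower and 13.6% higher. JUND, a JUN protein also made in quiescent cells, was 14.49 and 14.50 at 0 and 3 h and 13.30 and 13.02 at 6 and 9 h (−1.34, limma adjusted p = 1.82e-07). It returned to 14.36 to 14.60 at 36-45 h and so ended −0.04 from its start (adjusted p = 0.764). ATF2, a JUN partner at cyclic AMP response elements, fell by 0.64 (limma adjusted p = 0.0358). It was 6.98 at 0 h and 7.54 at 3 h, against a mean of 6.62 at 6-9 h. MAFF also passed the test, on a combined row that was above background on neither early array, so no fold is given. In the late step FOSL2 (0.35) and JUND (0.78) rose and none of the 8 fell, against 22.6% of all probes called higher and 22.7% lower. The share that rose was thus close to that of all probes. Without 0 h, 4 of the 8 fell and 1 rose early.

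**Figure D4:**
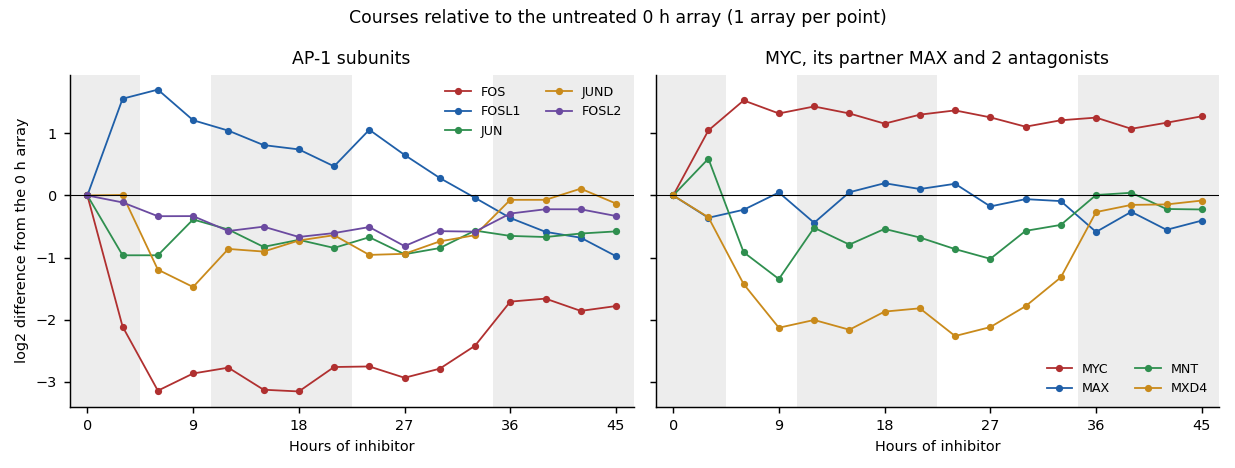
Log2 difference from the untreated 0 h array (vertical axis) against hours of inhibitor for AP-1 subunits (left) and for MYC, its partner MAX and 2 antagonists (right), 1 array per point. FOS falls to −3.14 at 6 h while FOSL1 is already at 1.56 at 3 h, and MXD4 and MNT are below 0 from 6 to 33 h and near 0 from 36 h.

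Among 38 other immediate-early genes, of which 32 were tested, 14 fell and 2 rose from 0-3 h to 6-9 h, with a median of −0.61. PPP1R15A (GADD34), a phosphatase subunit that restores translation after stress, fell 3.15-fold (−1.66, SE 0.13, limma adjusted p = 1.22e-07). NFKBIZ, an inducible regulator of NF-κB, fell 2.74-fold (−1.45, limma adjusted p = 0.00244), from 9.63 at 0 h and 8.22 at 3 h to a mean of 7.47. KLF4, KLF6, BTG1, BTG2, ZFP36, TRIB1, CTGF, RHOB, CSRNP1, HBEGF and PHLDA1 were among the 14. EGR2, the close relative of EGR1, was above background on both arrays of 0-3 h and on none of 6-9 h, and was at least 1.60-fold lower there (adjusted p = 0.000723). F3, the tissue factor of the clotting cascade, rose 2.70-fold (1.43, limma adjusted p = 0.00185), from 10.76 at 0 h and 12.41 at 3 h to a mean of 13.02. GADD45B rose as well (0.45, limma adjusted p = 0.0433). At 36-45 h against 24-33 h 18 of the 32 rose and 1, PHLDA1, fell, with a median of 0.38, against 22.6% of all probes higher and 22.7% lower. End against start gave 4 higher and 9 lower, with PHLDA1 4.42-fold lower (−2.14, adjusted p = 9.31e-10) and GADD45B 2.29-fold higher (1.20, adjusted p = 2.01e-06). Without 0 h the early count was 12 lower and 2 higher, against 16.4% of all probes called.

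Of 17 kinases and factors that induce immediate-early genes 16 were tested, and 4 rose and 0 fell at 6-9 h. MAP2K1 (MEK1) rose 2.29-fold (1.19, adjusted p = 8.74e-06) and MAPK9 (JNK2) by 0.72 (adjusted p = 0.000635), with MAPK9 (0.89) and MAPK3 (ERK1, 0.66) leading the 4 genes that were higher at 36-45 h than at 0-3 h, a count of 2 without 0 h. SRF was −0.05 at 6-9 h (adjusted p = 0.832) and −0.56 at 36-45 h against the start (adjusted p = 0.00166). Genes that report ERK output were mixed. Of 14 tested, 3 rose and 0 fell early, but 3 rose and 3 fell without 0 h. End against start 3 rose and 3 fell, each a share near that of all probes (18.4% and 16.8%), with 5 and 1 without 3 h. CCND1 (cyclin D1), a target of both ERK and AP-1, rose 2.43-fold early (1.28, adjusted p = 3.7e-07), SPRY1, an inhibitor of receptor signalling, was at least 1.72-fold higher at 6-9 h, PHLDA2 rose by 0.75 (adjusted p = 0.0253), and SPRY2 ended 1.76-fold lower (−0.81, adjusted p = 3.08e-05). DUSP4, another phosphatase of ERK, ended 0.56 higher (adjusted p = 0.000125) on its brightest probe and −0.56 on a second (adjusted p = 0.071). DUSP6, the ERK phosphatase, gave −0.12 early (adjusted p = 0.901), a mean over unlike arrays, as it was 5.73 and not above background at 0 h and 7.81 at 3 h, and 6.39 and 6.90 at 6 and 9 h.

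Genes of the receptors themselves were few. EGFR gave 0.34 on its brightest probe at 6-9 h (adjusted p = 0.0201), with 0.23 and 0.27 on other probes, neither past the threshold, and at 36-45 h its 3 tested probes disagreed (0.32, 1.14 and −0.60, each past the threshold). ERBB3, the kinase-impaired partner of HER2, was 10.92 at 0 h and 10.40 at 3 h, fell to 10.07 and 9.75 at 6 and 9 h (−0.75, adjusted p = 0.0201) and reached 11.60 to 11.82 at 36-45 h, 2.11-fold above 0-3 h (1.07, adjusted p = 0.000301). Its combined row gave −0.30 (adjusted p = 0.291) and 0.47 (adjusted p = 0.0362). ERBB2 gave −0.05 and −0.06 (adjusted p = 0.875 and 0.8).

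Of the antagonists of MYC, MXD4, MNT and MXD3 fell from 0-3 h to 6-9 h, while MXD1 (−0.29, adjusted p = 0.443) and MXI1 (−0.18, adjusted p = 0.554) were not past the threshold. Of 16 network genes 14 were tested, and 4 fell and 1 rose at 6-9 h, or 6 and 0 without 3 h. MXD4 was 11.67 and 11.32 at 0 and 3 h, 10.24 and 9.54 at 6 and 9 h and 9.40 to 10.35 up to 33 h, then 11.40 to 11.59. It fell 3.04-fold early (−1.60, adjusted p = 5.85e-05) and ended 0.01 from its start. MNT was 9.17 at 0 h, 9.76 at 3 h, 8.25 at 6 h and 7.82 at 9 h. It fell 2.69-fold (−1.43, adjusted p = 5.06e-05) and MXD3 fell 2.56-fold (−1.36, adjusted p = 0.0071). MXD3 was back up at 12-21 h (1.44 against 6-9 h, limma adjusted p = 0.00184). Its means over the 5 phases were 9.19, 7.83, 9.27, 9.11 and 8.14. MAX gave 0.09 on its brightest probe (adjusted p = 0.802), and −0.22 and 0.24 on other tested probes, neither past the threshold. End against start the brightest MAX probe gave −0.27 and the others −0.66 and 0.38. Only −0.66 was past the threshold (limma adjusted p = 0.0129). MYCBP2, a large ubiquitin ligase that binds MYC, was the gene that rose (0.78, adjusted p = 0.0124). End against start, MYCBP2 was higher (0.90) and MXD3 (−1.05), MYCL1 (−0.40) and PIM1 lower, and without 0 h 3 were higher and 3 lower. In the late step 5 of the 14 rose, MXD4 and MNT among them, and 4 fell, MAX on its brightest probe among them. Of all probes 22.6% were called higher and 22.7% lower.

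MYC targets, mostly genes of ribosome assembly and nucleotide synthesis, were called higher early and lower late. Of 34 genes 29 were tested, and 16 rose and 3 fell from 0-3 h to 6-9 h, with a median of 0.43. Of all probes 13.6% were higher and 11.1% lower, so the share that fell was close to that of all probes. NOLC1, a nucleolar chaperone, was 7.01 at 0 h, 7.59 at 3 h, 9.04 at 6 h and 9.62 at 9 h and rose 4.10-fold (2.03, SE 0.20, adjusted p = 1.08e-06). PPAN rose 2.77-fold (1.47, adjusted p = 4.37e-05), and the CDC25A row, which combines probes, 2.67-fold (1.42, adjusted p = 0.000352). The 3 that fell were CDK4, SHMT2 and EIF4EBP1. The counts were 15 higher and 0 lower without 0 h and 16 higher and 1 lower without 3 h. From 24-33 h to 36-45 h 25 of the 29 fell and 0 rose, with a median of −0.66, against 22.7% of all probes lower and 22.6% higher. MYC itself differed by −0.04 (SE 0.14, limma adjusted p = 0.836), and by −0.27 to 0.0012 under alternative processing. End against start gave 8 higher and 7 lower, or 5 and 5 without 0 h, with EIF4EBP1 (−1.07), CDK4 (−0.71) and ODC1 (−0.70) the lowest of those called.

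Genes known as AP-1 targets and the stress partners of ATF3 are the last groups. Of 15 tested AP-1 targets (of 20) 5 rose and 1 fell at 6-9 h, or 3 and 1 without 0 h. The one that fell, IL8, a chemokine, was 4.04-fold lower (−2.01, limma adjusted p = 0.000253), from 10.34 at 0 h and 8.62 at 3 h to a mean of 7.47. SPRR1B, a cornified envelope protein, was 2.02-fold higher (1.01, limma adjusted p = 0.00192). At the end against the start 5 were higher, led by TIMP1 (0.96) and CD44 (0.80), and 4 lower, or 5 and 2 without 0 h. The matrix metalloproteinase genes MMP1, MMP9 and MMP10 were above background on no array, and MMP13, a collagenase above background on 14, ended lower (−0.78, adjusted p = 0.00781). Of 11 tested genes of the ATF4 and ATF3 stress response (of 12), 8 fell and 0 rose at 6-9 h, with a median of −0.76. DDIT3 (CHOP) fell 4.32-fold (−2.11, limma adjusted p = 0.00294), a mean over unlike arrays. It was 11.37 at 0 h and 8.59 at 3 h, against a mean of 7.87 at 6-9 h. TRIB3 fell by 1.54 on the log2 scale (limma adjusted p = 5.42e-07), and PPP1R15A, named above, is in this list too. End against start gave 6 lower and 1 higher, or 5 and 2 without 0 h, with TRIB3 (−1.49) and ASNS (−1.44) lowest. Without 0 h the early count was again 8 lower and 0 higher.

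**Figure D5:**
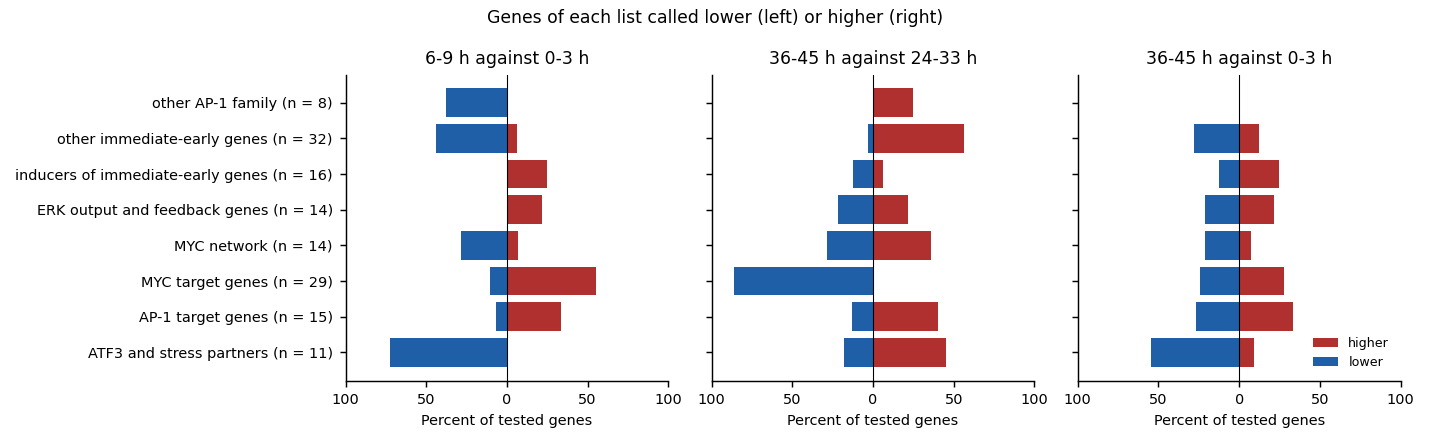
Percent of the tested genes of each list (horizontal axis) called lower (blue, left) or higher (red, right) by limma in 3 comparisons, with the number tested in brackets. The MYC targets are mostly red at 6-9 h, with 16 of 29, and mostly blue at 36-45 h against 24-33 h, with 25 of 29, while the other immediate-early genes have 14 of 32 blue in the first panel and 18 of 32 red in the second.

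The genes whose courses were most like those of the members over the 16 arrays, by Pearson correlation of log2 values and as a description, were PPARGC1A (r = 0.966), DDIT3 (0.949) and VAV3 (0.944) for FOS. For FOSL1 they were HMFN0839 (r = 0.975), SFN (0.936) and C14orf32 (0.934), and for EGR1 SYF2 (r = 0.983), CGN (0.981) and LOC88523 (0.98). The course of EGR1 was the commonest kind, with 286 tested probes at r above 0.9, against 24 for FOS, 19 for FOSL1, 9 for MYC, 6 for IER2, 2 for IER3 and 0 for JUN. MYC was most like FOXF2 (r = 0.962), ANGPTL4 (0.928) and MRPS25 (0.919), IER2 like DHDH (0.912), IER3 like SLC30A1 (0.93) and JUN like PGBD2 (0.884). All points share the same arrays and time points.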

How the data were processed

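The authors deposited linear bead intensities that had not been normalized, and beside each a detection p-value. The study's methods state quantile normalization and a 1.7-fold threshold. The background correction, the summary software and the making of the 1497 combined rows of 20589 are not given in the sources used here. Starting from the deposited intensity values, the level of the negative control beads was derived through the detection p-values of the 19092 single-probe rows, followed by normexp (offset 16), quantile normalization and log2 (limma 3.58.1, R 4.3.3). The offset understates changes of dim probes. A probe was tested if its detection p was below 0.05 in 3 or more of the 16 arrays, which left 11957 probes for 11290 symbols.

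Time was fitted with limma as a natural cubic spline (3 df, 12 residual df) and as 5 phases (11 residual df), with an intensity trend. P-values were Benjamini-Hochberg adjusted over all tested probes and called under 0.05. Comparisons between 2 arrays have no test. A probe not above background in every array of a phase gives a bound, taken against the dimmest detected intensity.

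The members, lists and phases were chosen with earlier results of these data known. Every member row is reported, and a few list genes are not reported here by name. From each list, genes named were the 3 with the largest called change at 6-9 h and at 36-45 h against 0-3 h, through the brightest row, and genes with a part in the pathway, such as SRF, MAX and JUND. EGR2, MMP13, MXD1, MXI1, marker genes given with a change, and genes listed by name without a value were named after their values were seen. The 1.7-fold threshold is that of the methods. The scripts were tested on simulated data. Of 200 probes shifted by 1 log2 unit among 11957, 79% were recovered at 6-9 h against 0-3 h with 9 false calls, and 89.5% at 36-45 h against 0-3 h with 8. The simulated noise was normal and independent between arrays, with 1 SD per probe in all phases. In the data 24.7% of probes were called at 6-9 h against 0-3 h, and some members scattered more at 0-3 h. The simulated recovery and false calls therefore do not carry over to the data. The number of arrays limits the precision. Promoters and motifs came from RefSeq windows (GRCh38.p14). A comparison of protein sequences was planned and not run. Figures were drawn with matplotlib 3.10.9.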

Additional observations from a re-analysis of the deposited data

How the results depend on the processing

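No called direction reversed under the alternatives, which changed the background correction and its offset, the scaling between arrays (median or cyclic loess), the filter, the curve, the contrast or the arrays. Over single genes, 988 alternative values kept direction and side of the threshold, 17 lost a call and 14 gained one. The spline count of 6 was 3 with a straight line of time (FOS, EGR1 and MYC lost) and 5 to 6 with an array left out. The count of 5 at 6-9 h against 0-3 h was 0 with only the 4 arrays of 0 to 9 h, a fit with few residual degrees of freedom, 3 against 3 h alone (added after seeing the data), and 3 to 7 with an array left out, 3 without 0 h and 7 without 3 h. For 12-21 h against 6-9 h the count was 0 to 1, for 36-45 h against 24-33 h 3 to 4 and for 36-45 h against 0-3 h 4 to 5 with an array left out. At 6 h against 3 h the 1.7-fold count of 2 was 1 at a 2-fold threshold, under median scaling, with no background correction or with an offset of 50, and 0 on the deposited intensities (added after seeing the data). Median scaling called EGR1 higher at 36-45 h against 0-3 h (2 higher and 3 lower) and IER3 lower against 24-33 h (2 higher and 2 lower). Where not shown by the alternative's own construction, the cause was not tested.

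Differences that were not called changed sign as follows. At 6-9 h against 0-3 h, FOSL1 was −0.10 against 3 h alone and ran from −0.10 to 1.46 with an array left out, and JUN was 0.29 against 3 h alone and ran from −0.68 to 0.29. Under median scaling JUN was 0.0027 (12-21 h against 6-9 h), 0.033 (24-33 h against 12-21 h) and 0.020 (36-45 h against 0-3 h), and MYC was 0.025 and 0.059 in the first 2 of these. FOS at 36-45 h against 0-9 h was 0.28. With an array left out, values at 12-21 h against 6-9 h ran from −0.087 to 0.19 for FOS, −0.35 to 0.23 for JUN and −0.097 to 0.15 for IER2, those at 24-33 h against 12-21 h from −0.088 to 0.039 for JUN, those at 36-45 h against 24-33 h from −0.087 to 0.0012 for MYC, and those at 36-45 h against 0-3 h from −1.75 to 0.36 for FOS and −0.63 to 0.34 for JUN.

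No paired analysis was possible because every time point has 1 array, all with the replicate number 1. A slide as a block was planned and not run, since neither the labels nor the table name a slide. Depth is set by signal over background, which leaves FOSB, JUNB and ATF3 unmeasured and JUN and IER2 close to the floor.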
